A study of Mus musculus with 6 samples.

Results

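The integrins of chondrocytes are the subunits through which a cartilage cell holds its matrix: 7 alpha subunits (Itga1, Itga2, Itga10, Itga11, Itga5, Itgav and Itga6) and 3 beta subunits (Itgb1, Itgb3 and Itgb5). These 10 genes were taken by symbol from a table of 15803 genes, and all 10 were present. The samples were growth plate cartilage of mouse embryos at E18.5, sequenced as 3 libraries labelled CKO and 3 labelled WT. The CKO embryos were Col2a1-Cre;Hnrnpk fl/fl, in which Cre driven by the promoter of the type II collagen gene deletes loxP-flanked exons of Hnrnpk in chondrocytes. The WT embryos were Hnrnpk fl/fl, so both groups carried the loxP sites and only the CKO embryos carried Cre. Hnrnpk encodes an RNA-binding protein, and the comparison asks which transcripts differ in the growth plate when it is deleted. Each library is mRNA of a whole tissue, in which fewer cells of a type and less RNA per cell cannot be told apart. The sources do not say whether a library is 1 embryo or a pool, so p-values measure the spread between these libraries.

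Integrins are pairs of 1 alpha and 1 beta subunit that cross the plasma membrane, bind matrix outside and recruit adaptor proteins such as talin and kindlin inside. In cartilage, α10β1, α11β1, α1β1 and α2β1 bind collagens, α5β1 and the αv integrins bind fibronectin and other proteins with an Arg-Gly-Asp (RGD) sequence, and α6β1 binds laminins. All of the collagen-binding alpha subunits, α5 and α6 can pair with β1, whose loss from chondrocytes is known to disturb the columns of the growth plate.

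The short cytoplasmic tails carry the contacts with the adaptors, and their coding sequence differs between some of the subunits. In an alpha subunit a glycine and a pair of phenylalanines lie just inside the membrane, usually followed by lysine and arginine, and in a beta subunit an Asn-Pro-x-Tyr (NPxY) site binds talin. The sequences below are coding sequence of GENCODE M21 on GRCm38, 5′ to 3′ in the sense of the gene, with the 5 codons of the alpha site or the 4 codons of the first NPxY site in capitals. They are shown for the pair with the most transcript (Itga5 and Itgb1), for the collagen-binding subunits that were tested and for the other tested beta subunit.
Itga5: aagctcGGCTTCTTCAAACGTtccctcccc
Itga1: aagattGGATTCTTCAAAAGGccactaaag
Itga11: aagctcGGTTTTTTTAAAAGTgccaagcgc
Itga10: aagcttGGCTTCTTTACCCGTaagaaaatc
Itgb1: acgggtgaaAATCCTATTTACaagagtgcc
Itgb5: atggcctcaAACCCCCTGTACagaaagccc

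The lysine and arginine codons followed the Gly-Phe-Phe codons in 5 of the 7 alpha subunits and did not in Itga10 and Itga11. Itgb1 held 2 NPxY sites in the window searched, and Itgb3 and Itgb5 held 1 each. Each stretch is joined from 2 exons. That of Itga5 lies on the minus strand between its ends at chr15:103345326-103345954 (exons 29 and 30), and that of Itgb1 on the plus strand between chr8:128726184-128732049 (exons 15 and 16). The other ends are chr13:114960108-114965600 on the minus strand for Itga1, chr9:62782047-62782654 for Itga11, chr3:96662706-96662991 for Itga10 and chr16:33947879-33948683 for Itgb5, the last 3 on the plus strand.

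For each gene and library the authors deposited CPM, the share of the listed genes' reads that fall on a gene, scaled to a sum of 1000000. All values were whole multiples of 1 read, so reads were recovered: 1183743 to 1379674 per library in WT and 1153871 to 1454094 in CKO. At this low depth 1 read was worth 0.688 to 0.867 CPM, and 3 reads, taken as the floor of detection, 2.06 to 2.60 CPM, which covers counting error only. Differences are log2 fold changes, CKO minus WT, of log2(CPM + 1), a scale that shrinks the change of genes at low counts. They were tested with limma over the 12155 genes that averaged 1 CPM or more, and a gene was called at an adjusted p under 0.05 (Benjamini-Hochberg over these genes). Hnrnpk stood at 842, 955 and 944 CPM in WT and 759, 949.9 and 780.0 CPM in CKO (adjusted p = 0.622 by limma). CKO 1 and CKO 3 lay below every WT library and CKO 2 within the WT range, so the whole-gene level did not separate the genotypes. Reads on the deleted exons alone cannot be seen in whole-gene values. The direction of each difference is taken from the labels. WT 3 and CKO 2 stood apart: chi-square per degree of freedom between libraries was 2.06 for WT 1 and 2 and 1.29 for CKO 1 and 3, against 8.65 to 14.2 for the pairs with WT 3 or CKO 2. The 8 chondrocyte markers were all detected, with a summed level of 14080.1 to 19193 CPM in WT and 3777 to 4965 CPM in CKO. Of them 5 fell, where 2.6% of all genes tested were called lower.

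No integrin of the 10 was called between the genotypes. Of them 8 reached the mean of 1 CPM, and 0 were called by limma, where 3.18% of all genes tested were called higher and 2.6% lower (5.78% in all). By the criterion of the study's methods, a log2 fold change past 1 in either direction at p under 0.05, with p here unadjusted from limma, 0 of the 8 passed as well, against 10.4% of all genes. The edgeR quasi-likelihood test on the recovered reads (6 integrins tested) and DESeq2 (10 tested) also called 0, but DESeq2 gave an adjusted p for 6 of its 10 only. At an unadjusted p under 0.05, limma and edgeR each gave 1 integrin, Itga5, and DESeq2 gave 0, where 21.3% of all genes passed with limma. The log2 fold change was above 0 for 5 and below 0 for 3 of the 8, with a median of 0.34 against 0.013 for all genes tested. Within these limits, Itga5 was the member whose libraries did not overlap between genotypes, and Itgb1 the member whose call depended on 1 library.

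**Figure D1:**
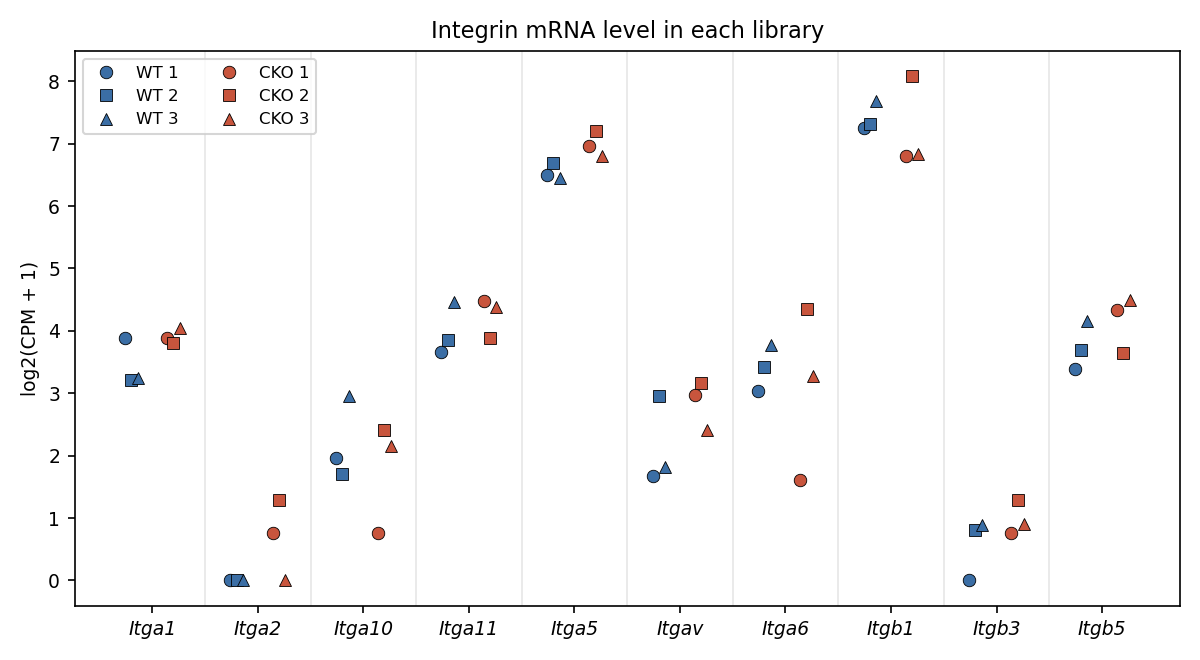
Level of the 10 integrins as log2(CPM + 1), WT libraries in blue and CKO libraries in red, the symbol giving the library number. Itga5 and Itgb1 lie above the other 8 in every library, only Itga5 has its 3 CKO values above its 3 WT values, and CKO 2 is far above the other CKO libraries for Itgb1.

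Of the subunits that bind RGD proteins, Itga5 (ENSMUSG00000000555, chr15:103344286-103366763, minus strand) is the alpha subunit of the main fibronectin receptor. WT 1, 2 and 3 held 89.2, 103 and 86.2 CPM of it, and CKO 1, 2 and 3 held 124, 147 and 111 CPM. All 3 CKO values lay above all 3 WT values, as did those of 14.5% of all genes tested (27.7% had no overlap in either direction). The means were 92.7 ± 8.87 CPM in WT and 127 ± 18.0 CPM in CKO (SD, n = 3 each), from 102 to 203 reads a library. The log2 fold change was 0.45 (SE, the standard error, 0.18), or 1.36-fold with a 95% interval of 1.04 to 1.79. This was short of the threshold (adjusted p = 0.178 by limma, unadjusted p = 0.0295), and the exact two-sided permutation test gave p = 0.1, the smallest that 3 against 3 allows. With single libraries left out the log2 fold change ranged from 0.34 to 0.54, and the adjusted p over all alternatives from 0.163 to 0.367. Without WT 3 and CKO 2 it was 0.29.

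Itgav (ENSMUSG00000027087, chr2:83724397-83806916, plus strand) is the alpha subunit that pairs with β3 and β5, among others. It was counted by 3 to 11 reads a library, with 2.17, 6.75 and 2.53 CPM in WT and 6.88, 7.94 and 4.33 CPM in CKO. WT 1 and WT 3 were at the floor, and the genotypes overlapped through WT 2. The log2 fold change was 0.70 with a SE of 0.46 (adjusted p = 0.419 by limma). It ranged from 0.46 without WT 1 to 1.11 without WT 2, and was 0.39 without WT 3 and CKO 2. The processed transcript Gm13684 on the opposite strand shares 634 exon bases with Itgav, and the sources do not state whether counting used the strand, so its reads cannot be told apart.

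The collagen-binding alpha subunits gave no call in either direction. Itga1 (ENSMUSG00000042284, chr13:114953096-115101964, minus strand) binds network-forming collagens well and is widespread in mesenchymal cells. It stood at 13.8, 8.25 and 8.45 CPM in WT and 13.8, 13.0 and 15.6 CPM in CKO, with WT 1 inside the CKO range. This gave a log2 fold change of 0.47 (SE 0.31, adjusted p = 0.429 by limma). Itga1 shares 685 exon bases with Gm49395 on the same strand, which had 12 reads in all libraries together. Itga11 (ENSMUSG00000032243, chr9:62677826-62783982, plus strand), a receptor for fibrillar collagens best known from fibroblasts and perichondrium, stood at 11.6, 13.5 and 21.1 CPM in WT and 21.3, 13.7 and 19.9 CPM in CKO. WT 3 was close to the highest CKO library and CKO 2 close to the lower WT libraries, and the log2 fold change was 0.26 (SE 0.32, adjusted p = 0.694 by limma). It ranged from 0.086 without WT 1 to 0.49 without WT 3, and was 0.68 without WT 3 and CKO 2 (adjusted p = 0.125 by limma, unadjusted p = 0.0358).

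Itga10 (ENSMUSG00000090210, chr3:96645584-96664519, plus strand) encodes the collagen receptor subunit most typical of chondrocytes. It was low here, with 1 to 8 reads a library: 2.90, 2.25 and 6.76 CPM in WT and 0.688, 4.33 and 3.47 CPM in CKO. WT 2 and CKO 1 were at or below the floor. The log2 fold change was -0.43 (SE 0.56, 95% interval -1.68 to 0.82, adjusted p = 0.712 by limma) and turned to 0.080 without CKO 1, while it was -0.056 without WT 3 and -0.75 without CKO 2. The interval holds both a fall by more than 1 and a rise by 0.82 on the log2 scale, so a difference was not detectable at this depth. Itga10 shares 1739 of its 5.186 kb of exons with the read-through gene Gm42957, which had 6 reads in all libraries together. The sources do not state how reads in shared exons were counted. Reads missing from Itga10 or Itga1 for this reason therefore cannot be seen. Itga2 (ENSMUSG00000015533, chr13:114833081-114932100, minus strand), a collagen receptor of platelets and epithelia, had 0 reads in WT and 1, 2 and 0 in CKO 1, 2 and 3. It was at or below the floor in every library and was not tested.

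Itga6 (ENSMUSG00000027111, chr2:71745616-71858416, plus strand), the laminin-binding member, stood at 7.25, 9.76 and 12.7 CPM in WT and 2.06, 19.5 and 8.67 CPM in CKO. CKO 1 was the lowest of all 6 libraries, at the floor with 3 reads, and CKO 2 the highest with 27 reads. The log2 fold change of -0.33 (SE 0.60, adjusted p = 0.794 by limma) had no stable sign: it was 0.0028 with edgeR and RLE size factors, 0.0031 with DESeq2 and 0.40 without CKO 1, and -0.97 without CKO 2 (adjusted p = 0.269).

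Itgb1 (ENSMUSG00000025809, chr8:128685654-128733200, plus strand) is the beta subunit that most alpha subunits of the chondrocyte share. WT 1, 2 and 3 held 151, 159 and 204 CPM of its transcript, and CKO 1, 2 and 3 held 111, 271 and 113 CPM. CKO 1 and CKO 3 lay below every WT library and CKO 2 above every one. Over the 6 libraries the means were 171 ± 28.9 CPM in WT and 165 ± 91.8 CPM in CKO (SD, n = 3 each), with a log2 fold change of -0.18 (SE 0.31, adjusted p = 0.788 by limma). Without CKO 2 it was -0.60 (SE 0.17, adjusted p = 0.0464 by limma) and Itgb1 was called lower, as were 5.03% of all genes tested in that fit. Without both WT 3 and CKO 2, an alternative chosen after the data were seen, it was -0.47 (adjusted p = 0.0125 by limma), with 9.22% of all genes called lower. Without CKO 1 it was 0.040, and without CKO 3 it was 0.028.

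CKO 2 also differed from the other CKO libraries in markers of other cells. The summed level of 9 skeletal muscle markers was 280.05 CPM in CKO 2, 95.3 to 105 CPM in CKO 1 and 3 and 36.8 to 171 CPM in WT. The platelet marker Pf4 stood at 54.1 CPM in CKO 2, 6.19 to 7.80 CPM in CKO 1 and 3 and 1.45 to 20.3 CPM in WT, and was the only platelet marker of 4 in the table. Itga2b, an integrin subunit of platelets outside that list, stood at 4.33 CPM in CKO 2, 13.8 and 9.53 CPM in CKO 1 and 3 and 5.25 to 9.42 CPM in WT. It had 6 reads in CKO 2 and 7 each in WT 2 and WT 3, too few to set these libraries apart. The 7 osteoblast markers were lowest in CKO 2, with 340.0 CPM, against 1026 to 1151 CPM in CKO 1 and 3 and 436 to 678 CPM in WT. The part of these cells in the Itgb1 and Itga6 values was not tested.

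The other beta subunits pair with αv. Itgb5 (ENSMUSG00000022817, chr16:33829665-33949338, plus strand), part of a vitronectin receptor, stood at 9.42, 12.0 and 16.9 CPM in WT and 19.3, 11.5 and 21.7 CPM in CKO. CKO 1 and CKO 3 lay above every WT library and CKO 2 among the lower ones, the reverse of the order in Itgb1. Its difference was 0.42 on the log2 scale (SE 0.34, adjusted p = 0.525 by limma), ranging from 0.23 without WT 1 to 0.67 without CKO 2, and 0.88 without WT 3 and CKO 2 (adjusted p = 0.0548). Itgb3 (ENSMUSG00000020689, chr11:104608000-104670476, plus strand), the beta subunit of platelets and osteoclasts, had 6 reads in all libraries together and at most 2 in one, and was not tested.

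**Figure D2:**
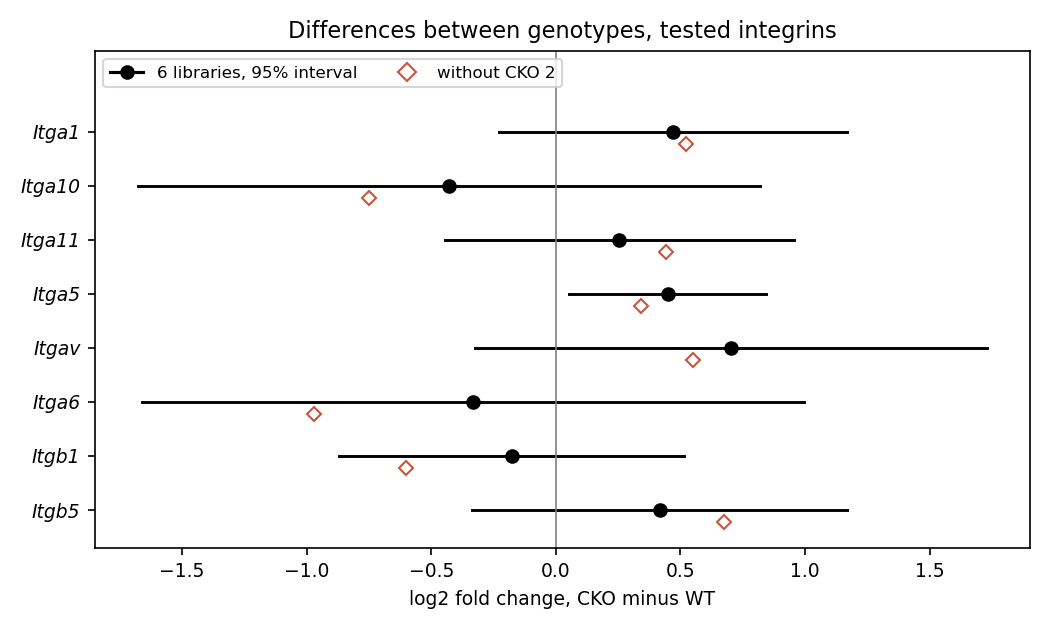
Log2 fold change, CKO minus WT, of the 8 tested integrins (black points, 95% interval from limma) and the same value without CKO 2 (open red diamonds). The interval of Itga5 alone lies above 0 before adjustment, and without CKO 2 Itgb1 moves from -0.18 to -0.60.

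Levels of different integrins were compared as CPM per kb of merged exons. Merged exons take in all annotated transcripts, 18.599 kb for Itga1 and 5.186 kb for Itga10, so the order and the shares below depend on this length. In CPM the WT mean of Itga1 was above that of Itga10 (10.2 against 3.97). In WT, Itgb1 led with 42.0 ± 7.08 CPM per kb, followed by Itga5 with 18.8 ± 1.80 CPM per kb (SD, n = 3 each), and the ranges of this pair did not overlap. Itgb5 (3.60 CPM per kb) and Itga11 (3.003 CPM per kb) came next, below every Itga5 value and overlapping with each other. Itga6 at 1.10, Itga10 at 0.765, Itga1 at 0.546 and Itgav at 0.356 CPM per kb followed below Itga11, and each overlapped with its neighbour in this order. Itgb3 (0.0901 CPM per kb) and Itga2 (0 reads) were last. In CKO the first 5 places were the same, with 40.4 ± 22.5 CPM per kb for Itgb1 and 25.8 ± 3.64 CPM per kb for Itga5 (SD, n = 3 each), whose ranges overlapped. Itga10 stood behind Itga1 and Itgav in CKO, within overlapping ranges.

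Itga5 made up 69.9% to 79.97% of the summed alpha subunit level per kb in the WT libraries and 76.9% to 80.8% in the CKO libraries. The makeup of the alpha subunits thus overlapped between genotypes. Among the 4 collagen-binding subunits, Itga11 held 63.5% to 75.0% in WT and 60.6% to 81.1% in CKO, and Itga10 held 12.4% to 22.2% in WT and 2.59% to 18.9% in CKO. Set against Itgb1 per kb, Itga5 gave a ratio of 0.489, 0.535 and 0.349 in WT 1, 2 and 3 and of 0.930, 0.448 and 0.815 in CKO 1, 2 and 3. CKO 2 lay within the WT range, and CKO 1 and CKO 3 lay above it. All alpha subunits together gave ratios to Itgb1 of 0.499 to 0.669 in WT and of 1.15, 0.558 and 1.06 in CKO 1, 2 and 3.

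**Figure D3:**
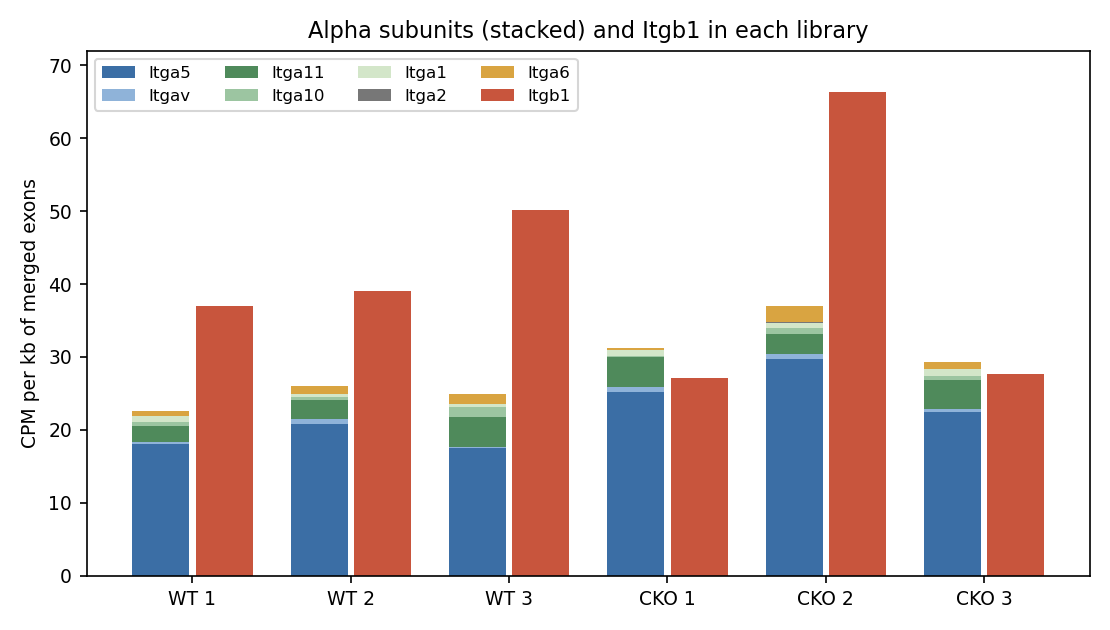
Level in CPM per kb of merged exons in each library, with the 7 alpha subunits stacked in the left bar and Itgb1 in the right bar. Itga5 fills most of the left bar in all 6 libraries, and the Itgb1 bar is the taller one except in CKO 1 and CKO 3.

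The table held 13 of 17 further integrin genes, of which 8 were tested, and limma called 0, with 0 at an unadjusted p under 0.05. The highest per kb was Itga2b, the alpha subunit of platelets and megakaryocytes, with 1.26 ± 0.411 CPM per kb in WT and 1.69 ± 0.865 CPM per kb in CKO (SD, n = 3 each). Itgb4, partner of α6 in epithelia, stood at 2.17, 1.501 and 1.69 CPM in WT and 4.13, 7.94 and 2.60 CPM in CKO. All WT libraries and CKO 3 were at or below the floor, with 2 to 3 reads. Its CKO values lay above its WT values, as did those of 14.5% of all genes tested. Its log2 fold change of 0.98 was not past the threshold (adjusted p = 0.259 by limma). Itga3 (log2 fold change 0.72), Itga7 (0.67), Itga9 (0.71), Itgb7 (0.95) and Itga4 (-0.45) had adjusted p-values of 0.343 to 0.621 by limma. These genes had few reads, at most 3 in a library for Itga9, 5 for Itgb7 and 11 for Itga3. The leukocyte subunit Itgb2 had at most 3.002 CPM in a library. Itgae, Itgam and Itgax, leukocyte alpha subunits outside the naming rule and chosen after their values were seen, had at most 1 read in any library. The summed level of 10 leukocyte and macrophage markers was 73.5 to 315 CPM in WT and 209 to 231 CPM in CKO. Of the 9 tested, 1 rose, Cd68, where 3.18% of all genes tested were called higher.

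Inside the cell, integrin adaptors and activators gave 2 calls higher and 0 lower among 30 tested genes, a share near the 5.78% of all genes, with a median log2 fold change of -0.032. Of the links between integrins and actin, Fermt2, Ilk, Tln1, Parvb and Parva were not called in the 6 libraries, while Actn1 was. Fermt2 (kindlin-2) differed by -0.0036 and Ilk (integrin-linked kinase) by -0.0048 on the log2 scale, and Tln1 (talin-1) by -0.12, all 3 outside the naming rule. The parvins, which bind Ilk, are also outside that rule. Parvb differed by 1.22 (adjusted p = 0.0525 by limma) and Parva by 0.47 (adjusted p = 0.135). Each was higher without overlap, as were 14.5% of all genes tested. The adjusted p of Parvb over all alternatives ranged from 0.0446 to 0.167. Parva was called higher without WT 3 and CKO 2 (adjusted p = 0.0227 by limma). In that fit 6 of the 30 adaptors and activators and 1312 of all 11911 genes tested were called higher. Actn1, an actin crosslinker that binds beta tails, rose from 15.9, 15.0 and 21.1 CPM in WT to 39.2, 36.1 and 31.2 CPM in CKO (95% interval of the log2 fold change 0.46 to 1.54, adjusted p = 0.0414 by limma). Dok1, an adaptor that competes with talin for the NPxY site, rose from 91.3, 66.0 and 76.0 CPM to 157, 150.1 and 135 CPM (log2 fold change 0.92, adjusted p = 0.0172 by limma). Both were without overlap, and both were called again without CKO 2. The call of Actn1 was lost without WT 1, WT 2, CKO 1 or CKO 3, with the replicate block and with DESeq2 (adjusted p up to 0.157), and that of Dok1 without WT 2, CKO 1 or CKO 3 (up to 0.0893).

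Among 10 proteins that sit beside integrins in the membrane, 2 were called higher and 0 lower, where 3.18% of all genes were called higher and 2.6% lower. Plaur, the urokinase receptor, which associates with β1 and β3 integrins, rose from 27.5, 19.5 and 41.4 CPM in WT to 135, 208 and 140 CPM in CKO (log2 fold change 2.44, SE 0.28, adjusted p = 0.00161 by limma), and its call held in every alternative. Cav1, the caveolar protein, rose from 82.6, 106 and 110 CPM to 223, 144 and 211 CPM (log2 fold change 0.93, adjusted p = 0.0299 by limma). It was not called without WT 1, WT 2, CKO 1 or CKO 3 or with the replicate block (adjusted p up to 0.135). Without CKO 2, 3 of the 10 were higher and 2 lower, where 5.74% of all genes were called higher and 5.03% lower.

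Of 16 tested collagen chains, the ligands of α1, α2, α10 and α11, 6 fell and 0 rose, with a median log2 fold change of -0.93. Among all genes tested, 2.6% were called lower and 3.18% higher. The 4 with the smallest p were cartilage chains, Col9a1 (log2 fold change -2.50), Col11a2 (-2.90), Col11a1 (-1.27) and Col2a1 (-1.03, adjusted p = 0.0119 by limma), and Col1a2 and Col5a1, beyond the 4 named by rule, were the other two. Col2a1, the main collagen of cartilage, stood at 2720.2, 3133 and 3944 CPM in WT and 1411, 1950.2 and 1427 CPM in CKO. Without CKO 2, 9 chains fell and 1 rose, again beside 5.03% and 5.74% of all genes. The call of Col2a1 was lost without WT 2, CKO 1 or CKO 3 (adjusted p up to 0.0694), that of Col1a2 without WT 2 or CKO 3 (up to 0.0863), and that of Col5a1 without any single library but CKO 2, with the replicate block and with DESeq2 (up to 0.144). Those of Col9a1, Col11a1 and Col11a2 were kept in every alternative. Col2a1 and Col9a1 are themselves 2 of the 5 chondrocyte markers that fell, the other markers being Acan, Matn1 and Snorc, and the part of a lower share of chondrocytes was not tested.

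Of 18 tested RGD ligands 3 rose and 3 fell, with a median log2 fold change of 0.60. Fn1 (fibronectin), the main ligand of α5β1, rose from 929, 1071 and 1496 CPM in WT to 2796, 1778 and 2300.1 CPM in CKO (log2 fold change 0.98, SE 0.21, adjusted p = 0.0267 by limma). Its call was lost without WT 1, WT 2, CKO 1 or CKO 3 (adjusted p up to 0.130). Spp1 (osteopontin), a ligand of αv integrins from bone and hypertrophic cartilage, rose with a log2 fold change of 2.84 (adjusted p = 0.00403 by limma), and Ccn1, a matricellular ligand of αv and β1 integrins, with 1.99 (0.00159). Comp, a pentameric protein of the cartilage matrix, fell from 1642, 1253 and 1809 CPM to 191, 165 and 193 CPM (log2 fold change -3.08, adjusted p = 2.3e-05 by limma). Edil3 (-0.93) and Tgfbi (-0.68), both secreted RGD proteins, also fell, and both calls were lost without WT 1, WT 2, WT 3, CKO 1 or CKO 3 and with the replicate block (adjusted p up to 0.109 and 0.158). Without CKO 2, 7 RGD ligands were higher and 3 lower, in a fit that also called more of all genes (5.74% higher and 5.03% lower, against 3.18% and 2.6%).

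Of 7 tested laminin chains, the ligands of α6 integrins, limma called 0 and 2 had an unadjusted p under 0.05, with a median log2 fold change of 0.14. Among all genes tested, 5.78% were called and 21.3% had an unadjusted p under 0.05 by limma. The chain with the most reads, Lamb1, stood at 39.1, 42.0 and 45.6 CPM in WT and 71.5, 20.2 and 72.8 CPM in CKO (adjusted p = 0.862 by limma). CKO 1 and CKO 3 were above every WT library and CKO 2 below. Without CKO 2 Lamb1 was called higher (log2 fold change 0.76, adjusted p = 0.0259 by limma), as were 5.74% of all genes tested in that fit.

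**Figure D4:**
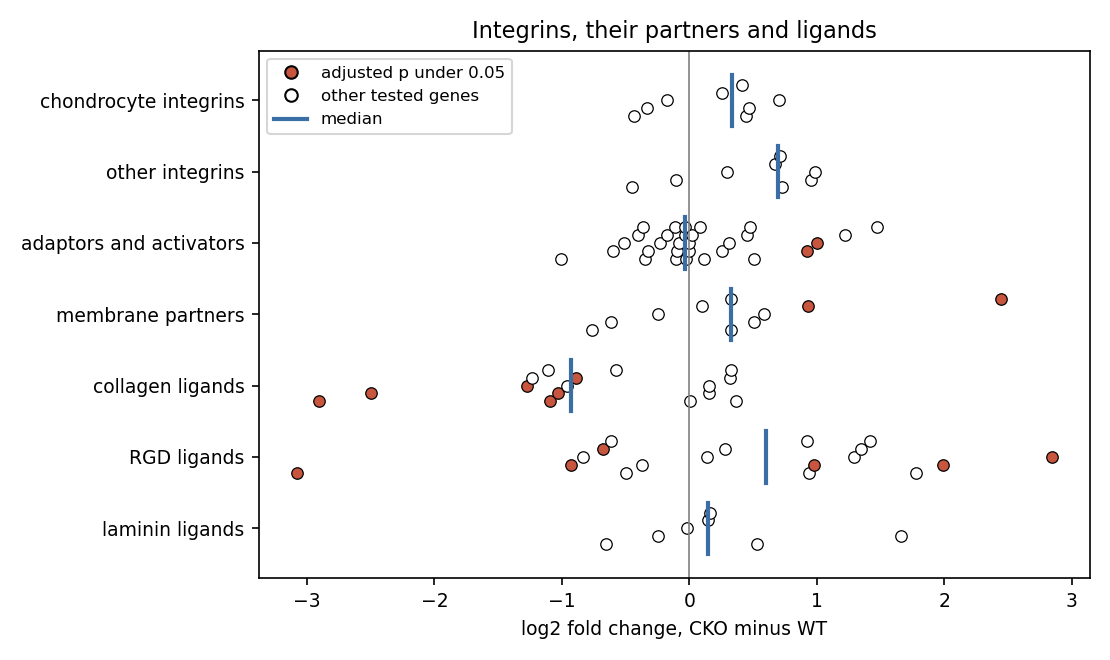
Log2 fold change, CKO minus WT, of every tested gene in 7 lists, with called genes filled red and the median of each list as a blue bar. No point of the integrin lists is filled, the 6 called collagen chains lie below 0, and the called RGD ligands lie on both sides.

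Of the remaining marker lists, those of fibroblasts and tendon (7 genes) summed to 2797 to 4458 CPM in WT and 1036 to 1874 CPM in CKO, without overlap, and 1 of 6 tested fell. Keratinocyte markers summed to 21.1 to 46.4 CPM in WT and 44.7 to 62.1 CPM in CKO, and endothelial markers to 8.70 to 17.3 CPM and 9.63 to 18.2 CPM, and both overlapped. Osteoclast markers summed to 89.9 to 97.1 CPM in WT and 106 to 117 CPM in CKO, without overlap, and 0 of 4 were called (1 at an unadjusted p under 0.05 by limma). Of all single genes tested, 14.5% were higher and 13.2% lower in CKO without overlap. By limma, 3.18% were called higher and 2.6% lower, and 21.3% had an unadjusted p under 0.05. The 2 erythroid markers in the table summed to at most 3.75 CPM. The part of these cells in the integrin values was not tested.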

How the data were processed

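The authors deposited a table of CPM per gene and library, made from a stranded mRNA kit. The submitters' processing notes name cutadapt (2.5), HISAT2 and featureCounts (1.6.3), and the genome build is not given in the sources used here. Coordinates come from GENCODE M21 on GRCm38, in which 15212 of 15217 Ensembl identifiers were found. All values (100%) were whole reads within a tolerance of 0.01 reads, so reads were recovered from the CPM. Columns were matched to labels by genotype and replicate number.

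limma (3.58.1, R 4.3.3) was fitted to log2(CPM + 1) of the 12155 genes that averaged 1 CPM or more, with a mean-variance trend, no covariate and Benjamini-Hochberg adjustment. The study states a log2 fold change criterion without naming its test. Alternatives were a pseudocount of 0.1, no filter, TMM-scaled CPM, a replicate block, edgeR (4.0.16) quasi-likelihood tests with TMM or RLE factors, DESeq2 (1.42.0), an adjusted p of 0.01 and each library left out. Leaving out WT 3 and CKO 2 together was added after the data were seen. Exact permutation tests were two-sided.

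The members were matched by symbol, not by value, but the integrins and the gene lists (other integrins, adaptors, membrane partners, ligands and cell markers) were compiled by hand with earlier results of these data known. Named were all 10 integrins, other integrins averaging 1 CPM or more, up to 4 called genes per list and direction with the smallest p, and the most abundant gene of a list without calls. Marker lists were described by their sums. No gene list was drawn up by likeness to a member, since that needed a called member. Near-identical sequence in other genes was sought with BLAST (2.17.0, at least 90% identity over 300 bases). Itga1 matched Gm49395, Itga10 Gm42957, Itga6 Gm29397 and Itgb5 Gm38317, which could share reads, and the other 6 integrins matched none. Gm49395 and Gm42957 lie at the loci of Itga1 and Itga10 on the same strand and share 685 and 1739 exon bases with them. Protein sequences were not used here.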

Additional observations from a re-analysis of the deposited data

How the results depend on the processing

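Across the alternatives, 98 of 106 log2 fold changes of the 8 tested integrins kept their direction and their side of the threshold. This leaves out Itga10 and Itgav with edgeR, which did not test them, and with DESeq2, which gave them no adjusted p. The count of integrins called higher was 0 in every alternative. The count called lower was 0 except without CKO 2 and without WT 3 and CKO 2, where it was 1 (Itgb1), so its range with single libraries left out was 0 to 1. The sign turned for Itgb1 without CKO 1 (0.040) and without CKO 3 (0.028), for Itga10 without CKO 1 (0.080), and for Itga6 without CKO 1 (0.40), with edgeR and RLE factors (0.0028) and with DESeq2 (0.0031), and the cause was not tested. With single libraries left out, the log2 fold change ranged from -0.60 to 0.040 for Itgb1, from -0.75 to 0.080 for Itga10 and from -0.97 to 0.40 for Itga6. Of all genes, 387 were called higher and 316 lower. Leaving out single libraries gave 123 to 692 higher and 79 to 606 lower, with the most without CKO 2. Without WT 3 and CKO 2, 1312 were higher and 1098 lower, and at an adjusted p under 0.01, 114 and 71. For the other genes called in the lists and markers, 252 of 294 values kept their call, 42 lost it and 0 turned. These values, and the lost calls given for single genes above, keep the threshold of 0.05. At an adjusted p under 0.01 by limma with all libraries, more calls were lost. They were those of Actn1, Dok1, Cav1, Fn1, Col1a2, Col2a1, Col5a1, Edil3 and Tgfbi.

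The study compared mice with their littermates, but the sources do not say which libraries share a litter. Deviations of same-numbered libraries from their group means correlated at 0.061, -0.23 and -0.16 over 5022 genes averaging 20 CPM or more. Those of differently numbered libraries ranged from -0.18 to 0.22. With 3 libraries a group, and WT 3 and CKO 2 apart from the rest, these values cannot decide whether the numbers pair the libraries. The replicate block gave 225 genes higher and 160 lower and called 0 integrins. With 1 to 31 reads a library for Itga10, Itgav, Itga6, Itga1, Itga11 and Itgb5, depth limits what can be seen in these 6 genes.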
